A study of Gallus gallus with 24 samples.

Results

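In mesoderm of the chick intestine, 18 genes of 17136 met a rule on size of difference and overlap, given below. Their levels in the hindgut and in midgut given Hoxd13 lay on opposite sides of control midgut. Of these, 7 were higher in hindgut and lower in Hoxd13 midgut, and 11 were lower in hindgut and higher in Hoxd13 midgut. The members were chosen from the counts themselves. CPM values (the count divided by the library total and multiplied by 1000000) were put on a log2 scale after adding 1. A gene was a member when the group mean of hindgut and that of Hoxd13 midguts 1 to 3 each differed from control midgut by at least 0.4 on that scale, in opposite directions, and when neither group's libraries overlapped with the control midguts. These differences are therefore a description of how the genes were picked, and both comparisons use the same 4 control midguts. Hoxd13 midgut 4 was held out. Taken singly, the conditions on hindgut were met by 6.90% of the 13064 genes that passed a filter on low counts in the higher direction and by 2.55% in the lower. Those on Hoxd13 midguts 1 to 3, with 3 libraries to keep apart in place of 4, were met by 11.8% and 7.23%. The order of these Hoxd13 shares turned with the scaling of the library totals, as given below.

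RNA was sequenced from mesoderm after the endoderm had been peeled off by hand, per the labels. RCAS vectors are replicating retroviruses of birds that pass from infected cells to dividing neighbours. All 3 groups received one, electroporated at stage HH 17 into the lateral plate mesoderm that covers the gut (the splanchnic layer), in eggs kept at 38 °C. The constructs were RCAS-mGFP, a GFP reporter, in the control midguts and control hindguts, and RCAS-Hoxd13 in the remaining midguts. The labels place the electroporation at midgut level, and do not give the share of infected cells in any library or say whether replicates were separate embryos. Each group had 4 libraries. The labels list 24 samples, 12 each for embryonic days 12 and 14, but the tables for these ages differed in 0 lines below the header. They were treated as 1 set of 12 libraries, and the age of the values is not known.

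Hoxd13 encodes a homeodomain transcription factor, which binds DNA and can raise or lower the transcription of its targets. In the vertebrate gut it is expressed in the mesoderm at the posterior end, in the hindgut and cloaca. In the chick, Hoxd13 expressed in midgut mesoderm is known to change the overlying epithelium towards a form seen in the large intestine. The study's stated interest is in genes that the hindgut and the Hoxd13 midgut have in common. The members are the opposite case, genes whose level under Hoxd13 lay on the far side of control midgut from the hindgut.

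The files give Ensembl gene IDs without symbols, and 0 of the 17136 IDs matched the reference gene table. What the members encode is therefore not stated, 2 members per direction are given by ID, and the others by rank. Ranks run within each direction from the largest to the smallest of the lesser of a gene's absolute differences. The level of Hoxd13 in the libraries and the markers of the labelled tissue and of other cell types could not be looked up either. The part of cell mixture in the results was not tested. In bulk tissue, fewer cells of a type and less RNA per cell cannot be told apart.

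Library totals ran from 7607185 to 10880695 counts. One library was unlike the rest. In Hoxd13 midgut 4, 13480 genes had counts and the top 100 genes held 34.0% of the total, where the other 11 libraries had 14565 to 14832 genes and 21.7% to 24.1%. On library totals the median gene of the 13064 was 0.04 higher in hindgut and 0.15 higher in Hoxd13 midguts 1 to 3 than in control midgut, on the log2 scale. With TMM scaling, which sets the bulk of genes equal, these medians were -0.01 and 0.03. All 18 members passed the filter, and all kept both signs under TMM scaling. The rule made this all but certain, as it asked for differences of at least 0.4 and the scaling moved the medians far less.

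**Figure D1:**
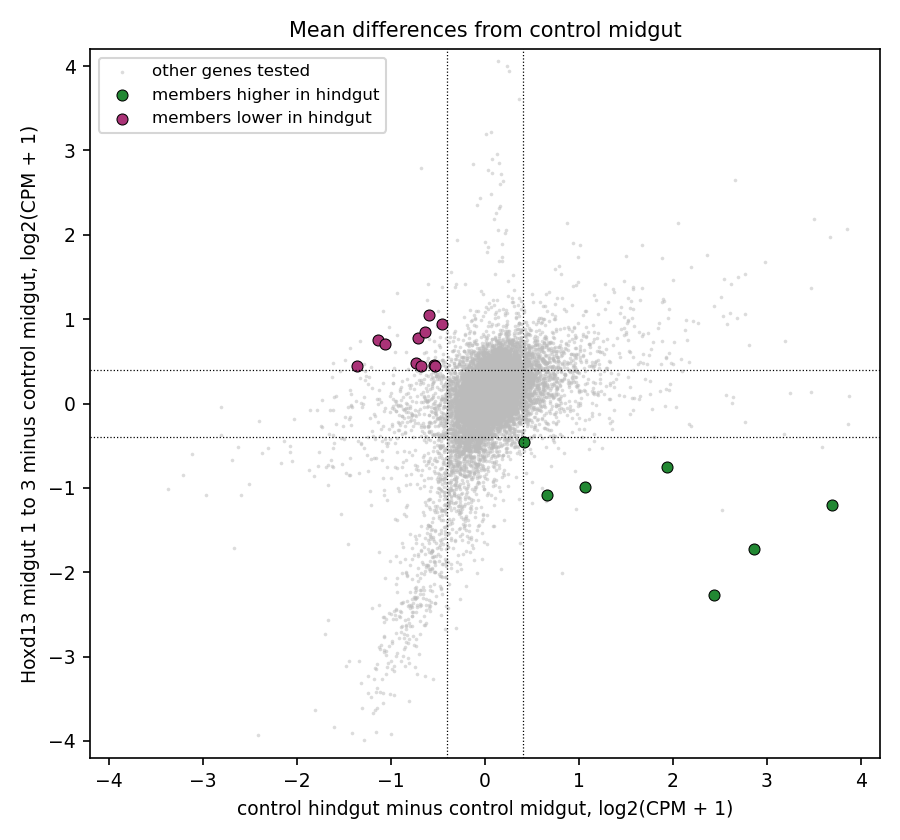
Mean difference from control midgut in control hindgut (horizontal axis) and in Hoxd13 midguts 1 to 3 (vertical axis), both in log2(CPM + 1), for 13049 of the 13064 genes tested. 15 genes lie beyond the axis limits of 4.2. The dotted lines mark 0.4 in either direction. Green points are the 7 members higher in hindgut and purple points the 11 members lower in hindgut, and the green points reach farther from the centre.

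By their medians, the members higher in hindgut had larger differences than the other set. On the log2(CPM + 1) scale their hindgut difference had a median of 1.94 and ran from 0.41 to 3.69, and their Hoxd13 difference had a median of -1.08 and ran from -0.46 to -2.27. For the members lower in hindgut, the hindgut difference had a median of -0.68 and ran from -0.46 to -1.36, and the Hoxd13 difference had a median of 0.70 and ran from 0.44 to 1.05. The Hoxd13 differences of the second set include the general upward shift of 0.15. Mean levels of the first set ran from 2.07 to 17.2 CPM in control midgut, from 10.7 to 97.2 CPM in hindgut, and from 0.326 to 6.08 CPM in Hoxd13 midguts 1 to 3. Those of the second set were 1.35 to 36.6, 0.579 to 23.6 and 4.45 to 63.8 CPM. In 6 of the 18 members, 2 of the first set and 4 of the second, the Hoxd13 difference was larger in size than the hindgut difference.

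**Figure D2:**
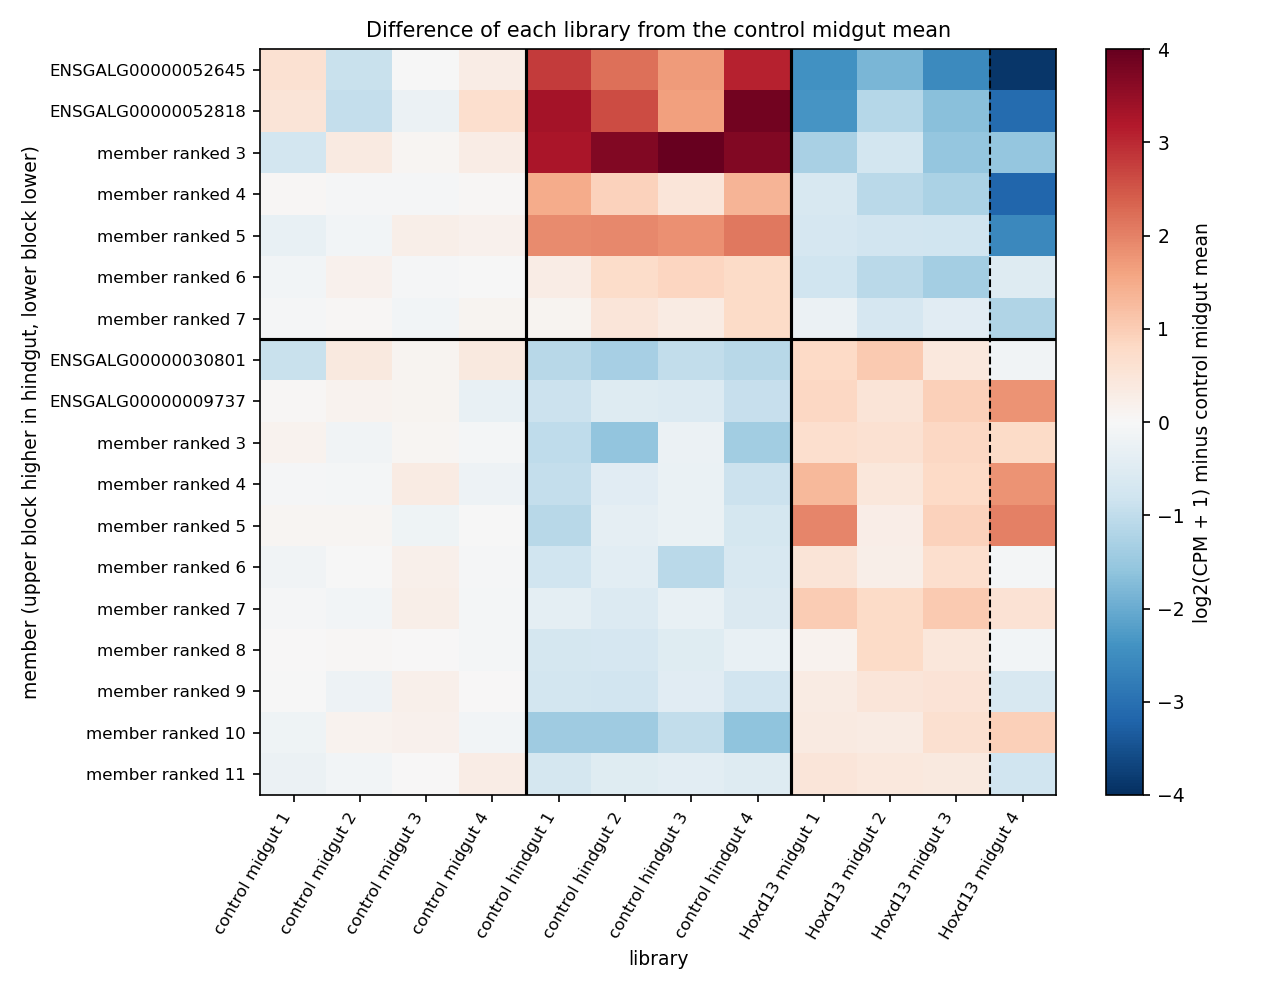
Difference of every library from the control midgut mean in log2(CPM + 1), as colour from -4 (blue) to 4 (red), for the 18 members (rows, by rank) in the 12 libraries (columns). The upper block holds the 7 members higher in hindgut and the lower block the 11 lower in hindgut. The dashed line sets off Hoxd13 midgut 4, where all 7 upper members are blue and 5 of the 11 lower members are not red.

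ENSGALG00000052645, the first-ranked member higher in hindgut, had 24.7, 8.09, 15.8 and 20.0 CPM in control midguts 1 to 4. It had 117, 76.8, 54.1 and 141 CPM in control hindguts 1 to 4, and 2.15, 3.72 and 1.91 CPM in Hoxd13 midguts 1 to 3. Every hindgut lay above every control midgut and every Hoxd13 midgut below, with a clear gap on both sides: the nearest libraries were 1.10 apart on the log2 scale for hindgut and 0.95 apart for Hoxd13 midgut. Group means were 17.2 ± 7.06 CPM in control midgut, 97.2 ± 39.1 in hindgut (SD, n = 4 each) and 2.59 ± 0.981 in Hoxd13 midgut (SD, n = 3). The fitted log2 fold change in edgeR was 2.46 ± 0.43 in hindgut and -2.87 ± 0.56 in Hoxd13 midgut (SE). Between Hoxd13 midgut and hindgut the fitted difference came to 40.3-fold.

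ENSGALG00000052818, ranked second, had 11.1, 3.41, 6.16 and 12.6 CPM in control midguts 1 to 4, 83.2, 50.6, 25.7 and 123 CPM in hindguts 1 to 4, and 0.644, 2.86 and 1.70 CPM in Hoxd13 midguts 1 to 3. The hindguts were all higher than the control midguts. On the lower side Hoxd13 midgut 2 came within 0.19 of control midgut 2 on the log2 scale. The fitted log2 fold changes were 3.06 ± 0.62 in hindgut and -2.39 ± 0.80 in Hoxd13 midgut (SE).

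The levels of ENSGALG00000052645 and ENSGALG00000052818 varied together in part between libraries of the same group. Both had the order 4, 1, 2, 3 from highest to lowest among the hindguts. Their lowest control midgut was number 2, and their highest Hoxd13 midgut among numbers 1 to 3 was also number 2. The highest control midgut was number 1 for ENSGALG00000052645 and number 4 for ENSGALG00000052818. Among Hoxd13 midguts 1 to 3 the lowest was number 3 for the former and number 1 for the latter. Over the 11 libraries, each was the gene most like the other among the 13064 tested, at a Pearson correlation of 0.98 of log2(CPM + 1). That figure is a description that includes the group differences by which both were chosen. The next most similar gene to each, at 0.97, was not a member.

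The third-ranked member had the largest hindgut difference of the 18. Its level was 27.5, 37.6, 47.7 and 37.9 CPM in hindguts 1 to 4, against 0.788, 2.77, 2.11 and 2.62 CPM in control midguts 1 to 4. In Hoxd13 midguts 1, 2 and 3 it had 2, 8 and 0 counts, where control midgut 1 had 8 and the other control midguts 22 to 26. A count of 0 allows up to 0.319 CPM in Hoxd13 midgut 3 (3 counts, counting error only). Its Hoxd13 difference thus rests on few counts, and Hoxd13 midgut 2 and control midgut 1 were 0.02 apart on the log2 scale. Unlike the first-ranked pair, it was highest in hindgut 3.

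Of the remaining members higher in hindgut, the fourth had gaps of 0.44 and 0.57 between the nearest libraries, for hindgut and Hoxd13 midgut, and the member ranked 5 had gaps of 1.60 and 0.38. The fourth had 12.9 ± 0.544 CPM in control midgut and 29.1 ± 8.89 in hindgut (SD, n = 4 each), and 6.08 ± 1.65 in Hoxd13 midgut (SD, n = 3). The fifth had 8.997 ± 1.70, 37.1 ± 3.35 and 4.89 ± 0.239 CPM in the same groups. The sixth differed more in Hoxd13 midgut than in hindgut, with 9.01 ± 0.920 CPM in control midgut, 15.0 ± 2.54 in hindgut and 3.77 ± 0.926 in Hoxd13 midgut. The seventh was at the edge of the rule, at 7.70 ± 0.605, 10.7 ± 2.21 and 5.38 ± 1.03 CPM, and its lowest hindgut (8.469 CPM) barely exceeded its highest control midgut (8.463 CPM).

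**Figure D3:**
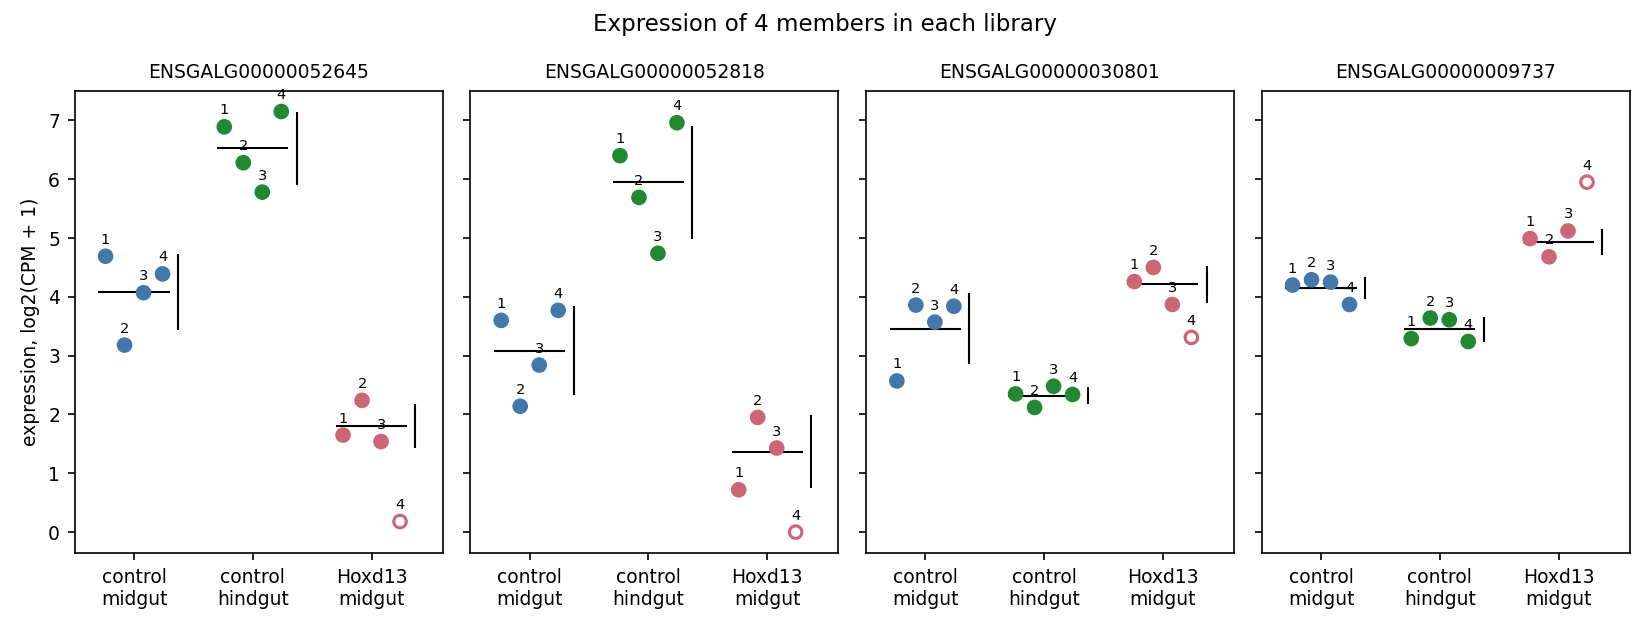
Expression in log2(CPM + 1) of the 4 members given by ID, in each library (points, numbered by replicate). Horizontal lines are group means and vertical lines ± 1 SD, over 4 control midguts, 4 control hindguts and Hoxd13 midguts 1 to 3. The open point is Hoxd13 midgut 4, which is in neither. The left pair of genes is highest in hindgut and lowest in Hoxd13 midgut, and the right pair is in the reverse order.

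ENSGALG00000030801, the first-ranked member lower in hindgut, had 4.93, 13.5, 10.8 and 13.4 CPM in control midguts 1 to 4. It had 4.09, 3.36, 4.60 and 4.05 CPM in hindguts 1 to 4 and 18.1, 21.6 and 13.6 CPM in Hoxd13 midguts 1 to 3. The groups came close on both sides. Control midgut 1, far below the other control midguts, was 0.08 above hindgut 3 on the log2 scale, and Hoxd13 midgut 3 was 0.01 above control midgut 2. The fitted log2 fold changes were -1.43 ± 0.28 in hindgut and 0.61 ± 0.28 in Hoxd13 midgut (SE).

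ENSGALG00000009737, ranked second, showed a wider separation. It had 17.3, 18.5, 18.0 and 13.6 CPM in control midguts 1 to 4, 8.75, 11.4, 11.2 and 8.42 CPM in hindguts 1 to 4, and 30.7, 24.6 and 33.7 CPM in Hoxd13 midguts 1 to 3. All hindguts were lower and all Hoxd13 midguts higher than the control midguts, by gaps of 0.23 and 0.39 between the nearest libraries on the log2 scale. The fitted log2 fold changes were -0.82 ± 0.15 in hindgut and 0.66 ± 0.15 in Hoxd13 midgut (SE). The pair of genes most like it over the 11 libraries, at Pearson correlations of 0.96 and 0.95, were a gene that is not a member and the fourth-ranked member lower in hindgut.

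The other 9 members lower in hindgut differed in how the change was divided. In the seventh the Hoxd13 side was the larger, at 32.8 ± 3.79 CPM in control midgut, 23.6 ± 2.07 in hindgut (SD, n = 4 each) and 63.8 ± 6.35 in Hoxd13 midgut (SD, n = 3), a Hoxd13 difference 2.06 times the hindgut difference in size. The tenth was more uneven, in the other way, at 36.6 ± 4.26, 13.7 ± 2.82 and 49.9 ± 6.35 CPM, with a ratio of 0.323. The third was at 8.87 ± 0.856, 4.04 ± 2.25 and 15.1 ± 1.17 CPM, and its hindgut spread came mostly from hindgut 3, at 7.28 CPM against 2.31 to 3.82 in the other hindguts. The fifth had the lowest level of the set, 1.35 ± 0.181, 0.579 ± 0.396 and 4.45 ± 3.30 CPM, with 1 to 10 counts per hindgut library and Hoxd13 midgut 1 at 8.15 CPM against 1.81 and 3.40 in numbers 2 and 3. The fourth was at 11.4 ± 2.13, 7.08 ± 1.86 and 21.9 ± 6.93 CPM. In the sixth and in the eighth to eleventh, the tenth included, the Hoxd13 difference was 0.44 to 0.48 on the log2 scale, close to the limit of 0.4.

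Several members met the rule narrowly. The gap between the nearest hindgut and control midgut libraries was under 0.1 on the log2 scale in 3 of the 18, and that between the nearest Hoxd13 midgut and control midgut libraries in 5. Among members higher in hindgut, the one just inside the limit differed by 0.41 in hindgut and -0.46 in Hoxd13 midgut, and the gene just outside by 0.48 and -0.39. In the other set the values were -0.53 and 0.44 just inside, and -1.28 and 0.38 just outside. Another set of genes, 9 with the higher level in hindgut and 26 with the lower, went in opposite directions without overlap but with a smaller difference. A further 28 and 53 genes passed 0.4 in opposite directions with overlap in at least 1 comparison.

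The balance of 7 against 11 turned with the scaling. With TMM-scaled totals, 11 genes were higher in hindgut and lower in Hoxd13 midgut and 6 the reverse, with 6 of the 7 and 5 of the 11 members among them. The same turn was seen over all genes tested. The Hoxd13 part of the rule was met by 1542 genes higher and 945 lower on library totals. With TMM-scaled totals it was met by 705 higher and 1293 lower. The first 6 members higher in hindgut and 3 members of the other set met the rule under each of its 19 alternatives. ENSGALG00000009737 was among these 3, and ENSGALG00000030801 was not, since it was no member with TMM-scaled totals or with Hoxd13 midgut 4 added. The count of 7 became 12, 12, 13, 23 and 12 without control midgut 2, control midgut 3, hindgut 3, Hoxd13 midgut 1 and Hoxd13 midgut 2, and the count of 11 became 18, 23 and 17 without Hoxd13 midgut 1, 2 and 3. Fewer libraries overlap less easily, so leaving one out eases that part of the rule. Group means move as well, and the count of 7 became 6 without hindgut 2 or hindgut 4. Some of the 19 alternatives could drop no member. They include the lower limit of 0.3 and the filter on low counts, which all members had passed. The same holds for asking only for 1 sign of difference between hindguts and control midguts of the same number, in place of no overlap.

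The same genes were read in an edgeR quasi-likelihood fit of the 11 libraries, with p-values adjusted over all 13064 genes and a call at an adjusted p under 0.05. The rule used these contrasts, so the counts describe the choice of members. Against control midgut, 6 of the 7 members were called higher in hindgut, where 4.75% of all genes were, and 4 of the 7 were called lower in Hoxd13 midgut, where 0.911% were. Of the 11, 9 were called lower in hindgut, against 2.07% of all genes, and 2 were called higher in Hoxd13 midgut, against 1.41%. All 7 were called lower and all 11 higher in Hoxd13 midgut than in hindgut, against 3.28% and 2.44% of all genes. That difference is the sum of the ones the rule asked for.

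In 6 members, 4 of the first set and 2 of the second, both comparisons with control midgut were called, and these 6 were all of the genes called in opposite directions in the fit (0.0459% of those tested). ENSGALG00000052645 and ENSGALG00000009737 were among them. ENSGALG00000052818 and ENSGALG00000030801 were called in hindgut only, at an edgeR adjusted p of 0.103 and 0.188 in Hoxd13 midgut. ENSGALG00000052645 and ENSGALG00000009737 each lost the Hoxd13 call in 8 of 17 alternatives. All 8 were among the 11 that leave out a single library. The edgeR adjusted p of those fits ran from 0.0536 to 0.202 for ENSGALG00000052645 and from 0.0587 to 0.226 for ENSGALG00000009737, highest without Hoxd13 midgut 3 in both. The 6 became 3, 3, 2 and 2 without control midgut 1, 2, 3 and 4, 2 without hindgut 2 and 2 without Hoxd13 midgut 3. It was 9 of the 18 with DESeq2 and 4 with Hoxd13 midgut 4 in the fit. The share of all genes called in opposite directions was computed for the main fit only, so these counts have none beside them. Calls over all genes moved as well. In hindgut against control midgut, 892 genes called became 1376 with DESeq2 and 442 with Hoxd13 midgut 4. In Hoxd13 midgut against control midgut, 303 became 2273 and 832. Without control midgut 1, 2, 3 and 4 the 303 became 106, 187, 66 and 86. Without hindgut 2 they became 162, and without Hoxd13 midgut 3 they became 40. A fit of the control libraries alone called 909 genes between hindgut and control midgut, and adding replicate number as a block called 1498. Both of these fits called 16 of the 18 members.

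Hoxd13 midgut 4 was not used to choose the members. In all 7 members higher in hindgut it lay below every control midgut. It was below every other Hoxd13 midgut too in 5 of them, for which the share over all genes was not computed. ENSGALG00000052645 was at 0.131 CPM there (1 count), and ENSGALG00000052818 and the third-ranked member had 0 counts, which allows up to 0.394 CPM. The place of this library below the control midguts was not particular to the members: it lay there in 49.4% of all genes tested, and in 99.0% of the 945 genes that were lower by at least 0.4 without overlap in Hoxd13 midguts 1 to 3. Its median over all genes tested was 0.24 below control midgut on the log2 scale, where Hoxd13 midguts 1 to 3 were 0.13, 0.13 and 0.17 above.

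Of the 11 members lower in hindgut, Hoxd13 midgut 4 lay above every control midgut in 6, inside their range in 2 and below them in 3. It was above the control midguts in 32.1% of all genes tested and in 73.7% of the 1542 genes that were higher by at least 0.4 without overlap in Hoxd13 midguts 1 to 3. ENSGALG00000030801 was at 8.94 CPM in Hoxd13 midgut 4, inside the control range only through control midgut 1. That control had 4.93 CPM, against 10.8 to 13.5 CPM in the others. ENSGALG00000009737 reached its highest level in Hoxd13 midgut 4, 61.0 CPM. The members ranked 4 and 5 were also higher there than in any other library, at 41.5 and 8.54 CPM, and the tenth at 70.9 CPM. The eighth, ninth and eleventh were below the control midguts, at 28.3, 19.2 and 10.9 CPM. With TMM-scaled totals, Hoxd13 midgut 4 lay on the side of the other Hoxd13 midguts in all 17 genes that then met the rule, 6 of them lower in hindgut. The same held on that scaling for 85.4% of all genes higher, and 94.7% of all genes lower, by at least 0.4 without overlap in Hoxd13 midguts 1 to 3. A single library that shares its controls with the rule gives no test of these places.

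**Figure D4:**
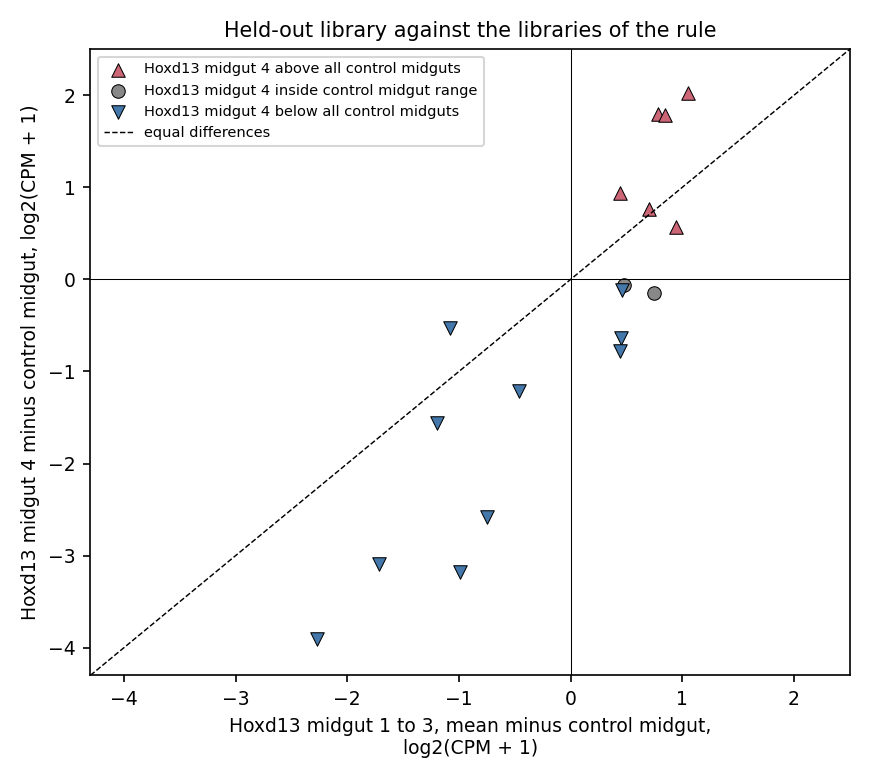
Difference from the control midgut mean in Hoxd13 midgut 4 (vertical axis) and in the mean of Hoxd13 midguts 1 to 3 (horizontal axis), both in log2(CPM + 1), for the 18 members. Triangles up mark the 6 members with Hoxd13 midgut 4 above all control midguts, circles the 2 inside their range and triangles down the 10 below them. Points on the dashed line would have equal differences.

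The members shared no single order among Hoxd13 midguts 1 to 3. Number 3 was the farthest from control midgut in 11 of the 18, number 1 in 4 and number 2 in 3. For the members higher in hindgut the median difference from control midgut was -0.80, -1.08, -1.37 and -2.58 in Hoxd13 midguts 1 to 4. In the other set it was 0.67, 0.48, 0.68 and 0.57. Over all genes tested the medians were 0.13, 0.13, 0.17 and -0.24 in the same libraries.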

How the data were processed

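The authors deposited estimated counts per Ensembl gene as whole numbers, in 2 tables with the same values, so rounding changed none. Salmon, DESeq2 and GRCg6a are named without roles, per the submitters' processing notes. Which annotation was used, and any filter, is not given in the sources used here.

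Members, gene lists and tests were chosen with earlier results of these data known. Lists by symbol could not be applied, because no ID matched. The rule for named genes took, without symbols, the first 2 members per direction.

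Counts were fitted in R 4.3.3 with edgeR 4.0.16 (quasi-likelihood F test, robust, TMM, filterByExpr with a count minimum of 10, Benjamini-Hochberg adjustment). The 3 groups, without Hoxd13 midgut 4, entered 1 fit. Standard errors were derived from the F statistic. DESeq2 1.42.0 was an alternative. The fit was tested on simulated independent libraries, with changes larger than the Hoxd13 differences of most members. The changes were put only into genes above a limit on mean count that some members do not reach. That test does not cover genes with fewer counts, smaller changes or deviations shared between libraries. Libraries of a group differed by 17.3 to 140 times the sampling variance, so none was a repeat. Nothing says that replicates were separate embryos, so p-values reflect only sample-to-sample spread, possibly technical.

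Same-numbered control midguts and hindguts deviated together (correlations across genes of 0.507, 0.411, 0.530 and 0.536 for numbers 1 to 4). Each control midgut correlated best with the hindgut of its own number, so the numbers link these libraries, from the data and not the labels. What same-numbered libraries shared is not known, and the main fit did not pair them. Hoxd13 midguts 1 to 3 paired by number only in part, with control midguts (0.217, -0.0994 and 0.0453) and with hindguts (0.167, -0.256 and 0.469). Control midgut 1, hindgut 1 and hindgut 3 correlated best with the Hoxd13 midgut of their own number. Control midguts 2 and 3 and hindgut 2 did not.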

Additional observations from a re-analysis of the deposited data

Results flagged for a closer look

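Of 21 sets of 4 libraries tested for 1 lying far from the rest (library measures and the genes given by ID), 3 held one, where chance gives about 1 in 20. Hoxd13 midgut 4 was far from its group in the number of genes with counts, 13480, and in the share of counts held by the top 100 genes, 34.0%. Control midgut 1 had counts in 14818 genes, against 14659 to 14670 in the other control midguts.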

How the results depend on the processing

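The signs of the log2 fold changes of the genes given by ID held in every alternative fitted, but not their calls. Genes chosen for groups without overlap leave little room for a change of sign. ENSGALG00000052645 and ENSGALG00000009737 each lost the Hoxd13 call in 8 of 17 alternatives (edgeR adjusted p up to 0.202 and 0.226). For both, all 8 left out a library. The hindgut call was lost for ENSGALG00000009737 with all 12 libraries (edgeR adjusted p = 0.268) and for ENSGALG00000052818 without control midgut 3 (edgeR adjusted p = 0.0598). ENSGALG00000052818 gained the Hoxd13 call with DESeq2 (adjusted p = 0.00906). The 7 members higher in hindgut became 11 with TMM-scaled totals and 11 at a difference of at least 0.3, and 6 to 23 on leaving out a library. The 11 members lower in hindgut became 6 with TMM-scaled totals, 20 at a difference of at least 0.3, 5 at one of at least 0.5, 7 with Hoxd13 midguts 1 to 4, and 11 to 23 on leaving out a library. Hoxd13 midgut 4 lay outside the control range on the side of the other Hoxd13 midguts in 13 of 18 members, in 17 of 17 with TMM-scaled totals and in 21 of 31 at 0.3. Leaving out a library gave 12 (of 17, hindgut 4) to 32 (of 41, Hoxd13 midgut 1), with 23 of 26 without control midgut 2 and 22 of 29 without hindgut 3. The rule changes which genes are counted. Only the main rule and TMM scaling have shares over all genes (above) to compare. The 6 members called in opposite directions were 2 to 6 without single libraries, again with no share over all genes outside the main fit.

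Over all genes, 892 called in hindgut against control midgut became 1376 with DESeq2, 442 with all 12 libraries, 909 in a fit of the control libraries alone, 1498 there with a replicate block (chosen after seeing the data), and 656 to 924 without single libraries. The 303 called in Hoxd13 midgut against control midgut became 2273 with DESeq2, 832 with all 12 libraries, 806 in a fit of those groups alone and 40 to 1377 on leaving out a library. The count was 106, 187, 66 and 86 without control midgut 1 to 4, 172, 162 and 1377 without hindgut 1 to 3, and 609, 173 and 40 without Hoxd13 midgut 1 to 3. With the replicate number as a block there were 1469 such genes, and 7 of the 18 members were called in both comparisons in place of 6. The share of all genes called in both was not computed for that fit. The numbers do not pair Hoxd13 midguts with control midguts throughout, only for number 1. The block changed no call of the genes given by ID. The 747 called in Hoxd13 midgut against hindgut became 2289 with DESeq2, 414 in a fit of those groups alone, and 424 to 1645 on leaving out a library (1645 and 446 without hindgut 3 and 4, 448 and 424 without Hoxd13 midgut 2 and 3). The cause of these shifts was not tested. Members with few counts, such as those at 0 to 10 counts in a library, are limited by depth.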
